A study of Homo sapiens with 12 samples.

Results

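The heat shock proteins and DNAJ cochaperones are 74 of the 55765 gene symbols that were counted in differentiating SH-SY5Y cells, a human neuroblastoma line derived from SK-N-SH. They were chosen by symbol alone: the HSPA, HSPB, HSP90 and DNAJA to DNAJC families, the chaperonins HSPD1 and HSPE1, HSPH1, TRAP1, the cochaperone BAG3 and the heat shock factors HSF1 and HSF2. The patterns matched 76 symbols, and the pseudogenes HSPA7 and DNAJB3 were left out. All 12 cultures received all-trans retinoic acid (ATRA) for 7 days, which turns these cells towards neurons. In the co-treatment experiment, 3 cultures were given hydrogen peroxide (H2O2) together with ATRA for all 7 days and 3 controls were given ATRA alone. In the pre-treatment experiment, 3 cultures were kept in H2O2 for 72 h before ATRA was started, and 3 controls were not. The deposited description states the H2O2 concentration as 10 mM. The methods state 10 µM, picked from several micromolar concentrations because it harmed the cells least. The sources thus differ in the unit, and the dose is given here as uncertain. No statement places the replicates in separate experiments or passages, so p-values measure the spread between these libraries, which may be technical, and no undifferentiated cells were analysed here.

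The co-treatment libraries held 27576276 to 63182696 reads on genes and the pre-treatment libraries 41780221 to 98287391, of which the members took 0.672 to 0.884%. Control replicate 3 of the pre-treatment experiment differed from its control replicates 1 and 2. It held 0.2 reads outside annotated genes per read on a gene, against 0.8 and 0.83 in control replicates 1 and 2. The pre-treated libraries held 0.343 to 0.462 and the co-treatment libraries, controls included, 0.263 to 0.429. Replicates 1 and 2 were thus the highest of all 12 libraries and replicate 3 the lowest. Members took 0.71 and 0.672% of counted reads in replicates 1 and 2, the lowest shares of all, and 0.752% in replicate 3. Which of these controls is unusual was not tested. The counts of all genes in replicate 3 differed from those of replicates 1 and 2 with a chi-square of 545 and 499 per degree of freedom, against 40.1 between replicates 1 and 2. Each pre-treatment result is therefore given over all 6 libraries and without control replicate 3. The noradrenergic neuroblast genes PHOX2A, HAND2, GATA3, ISL1 and DBH were expressed in all libraries, while TH, the rate-limiting enzyme of catecholamine synthesis, lay between 0.01 and 0.26 CPM (counts scaled to a common library size).

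Heat shock proteins are molecular chaperones. Hsp70 proteins bind unfolded stretches of other proteins in a cycle driven by ATP, J-domain proteins of the DNAJ families deliver clients and stimulate ATP hydrolysis, and Hsp110 and BAG proteins exchange the nucleotide. Hsp90 acts on later folding states of kinases and receptors, the chaperonins HSPD1 and HSPE1 fold proteins in mitochondria, and small heat shock proteins hold misfolded proteins without ATP. Heat and oxidants release HSF1 from chaperones, after which it binds heat shock elements, which are inverted repeats of the unit GAA. Stress in the endoplasmic reticulum instead acts through ER stress response elements on genes such as HSPA5.

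The 250 bases before the start site are shown for 4 of the members with a motif match whose counts are described below. They are from RefSeq on GRCh38.p14, 5′ to 3′ along the gene. Capitals mark matches to the motifs searched on both strands: GAANNTTC or TTCNNGAA (a pair of GAA units), GAANNTTCNNGAA or TTCNNGAANNTTC (the triple, which contains the pair) and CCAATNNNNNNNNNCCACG (an ER stress response element). The window of HSPB8 lies at chr12:119178681-119178930 (plus strand), that of HSPA8 at chr11:123062137-123062386 (minus strand), that of HSPA5 at chr9:125241344-125241593 (minus strand) and that of DNAJA1 at chr9:33025023-33025272 (plus strand).
HSPB8: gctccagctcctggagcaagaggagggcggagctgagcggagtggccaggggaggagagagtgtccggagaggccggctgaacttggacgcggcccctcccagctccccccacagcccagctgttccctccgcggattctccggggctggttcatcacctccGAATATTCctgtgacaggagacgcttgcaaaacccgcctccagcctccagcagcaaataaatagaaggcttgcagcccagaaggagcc
HSPA8: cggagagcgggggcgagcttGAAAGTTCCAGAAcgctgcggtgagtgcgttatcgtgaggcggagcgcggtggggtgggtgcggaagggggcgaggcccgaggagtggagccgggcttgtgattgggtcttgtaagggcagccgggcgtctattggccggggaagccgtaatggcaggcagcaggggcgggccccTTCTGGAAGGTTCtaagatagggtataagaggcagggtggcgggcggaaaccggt
HSPA5: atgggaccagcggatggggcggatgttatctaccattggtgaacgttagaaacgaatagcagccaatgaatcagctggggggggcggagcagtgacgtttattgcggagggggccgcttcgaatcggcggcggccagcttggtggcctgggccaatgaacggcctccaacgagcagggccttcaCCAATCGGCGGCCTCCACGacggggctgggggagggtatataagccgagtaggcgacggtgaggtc
DNAJA1: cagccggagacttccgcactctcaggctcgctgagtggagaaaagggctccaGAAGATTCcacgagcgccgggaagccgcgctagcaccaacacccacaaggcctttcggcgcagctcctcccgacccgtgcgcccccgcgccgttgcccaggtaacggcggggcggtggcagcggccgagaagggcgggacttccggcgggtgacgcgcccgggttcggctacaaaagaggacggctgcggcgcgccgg

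Counted back from the start, the pair lies at positions -88 to -81 in HSPB8 and -198 to -191 in DNAJA1. HSPA8 holds the triple at -230 to -218 and again at -55 to -43, and HSPA5 holds the ER element at -66 to -48. Of the members not shown, HSPB1 holds the pair at -182 to -175. HSP90B1, also not shown, holds the ER element at -194 to -176 and again at -89 to -71. HSPH1, DNAJB1, HSPD1, HSPE1 and BAG3, also described below, held no match to any of these motifs. A promoter was found for 66 of the 74 members. The pair was present in 13 of these (19.7%) and in 11.7% of 27305 promoters, the triple in 3 (DNAJB6, HSPA6 and HSPA8; 4.55%) and in 0.439% of all promoters, and the ER element in 2 (HSPA5 and HSP90B1; 3.03%) and in 0.0806%. A match is a stretch of letters and no measurement of binding. A missing match does not exclude an element, because only exact matches within these 250 bases were searched.

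The members were led by the constitutive cytosolic chaperones HSPA8 and HSP90AB1. Per kilobase of transcript, HSPA8 (HSC70, the Hsp70 of unstressed cells) had a mean of 692.6 CPM in co-treatment controls and 566.7 in pre-treatment controls. HSP90AB1, the constitutive cytosolic Hsp90, followed with 493.9 and 383.2 CPM per kilobase. DNAJA1, a J-protein partner of HSPA8, came next in co-treatment controls with 187.3. In pre-treatment controls DNAJA1 had 127, below the Hsp90 genes HSP90B1 (142.1) and HSP90AA1 (138.7). HSPA8 alone took 14.6 to 24.8% of the reads of all members, and HSP90AB1 13 to 16.3%. HSPA8 hosts the small nucleolar RNAs SNORD14C and SNORD14D, whose reads may be counted with it.

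The stress-inducible Hsp70 genes HSPA1A and HSPA1B could not be judged, nor could their neighbour HSPA1L. HSPA1A (chromosome 6, 31783320 to 31785723, hg19), HSPA1B (31795515 to 31798031) and HSPA1L (31777396 to 31783060) are listed at 0 in all 12 libraries. Of the 127 protein-coding genes within 1.5 Mb of HSPA1A, 81 (63.8%) are at 0 in every library, against 7.02% of 17870 elsewhere. RPS18, a ribosomal protein gene that every cell uses, is among those at 0, so the zeros of the HSPA1 genes are no measure of their expression. HSPA6, the strictly inducible Hsp70, had 0 to 8 reads a library, and HSPB2 and HSPB3 had at most 4. These 6 genes passed no filter, and HSPB6 and HSPB9 did not pass that of the co-treatment comparison, which left 66 members tested there and 68 elsewhere.

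**Figure D1:**
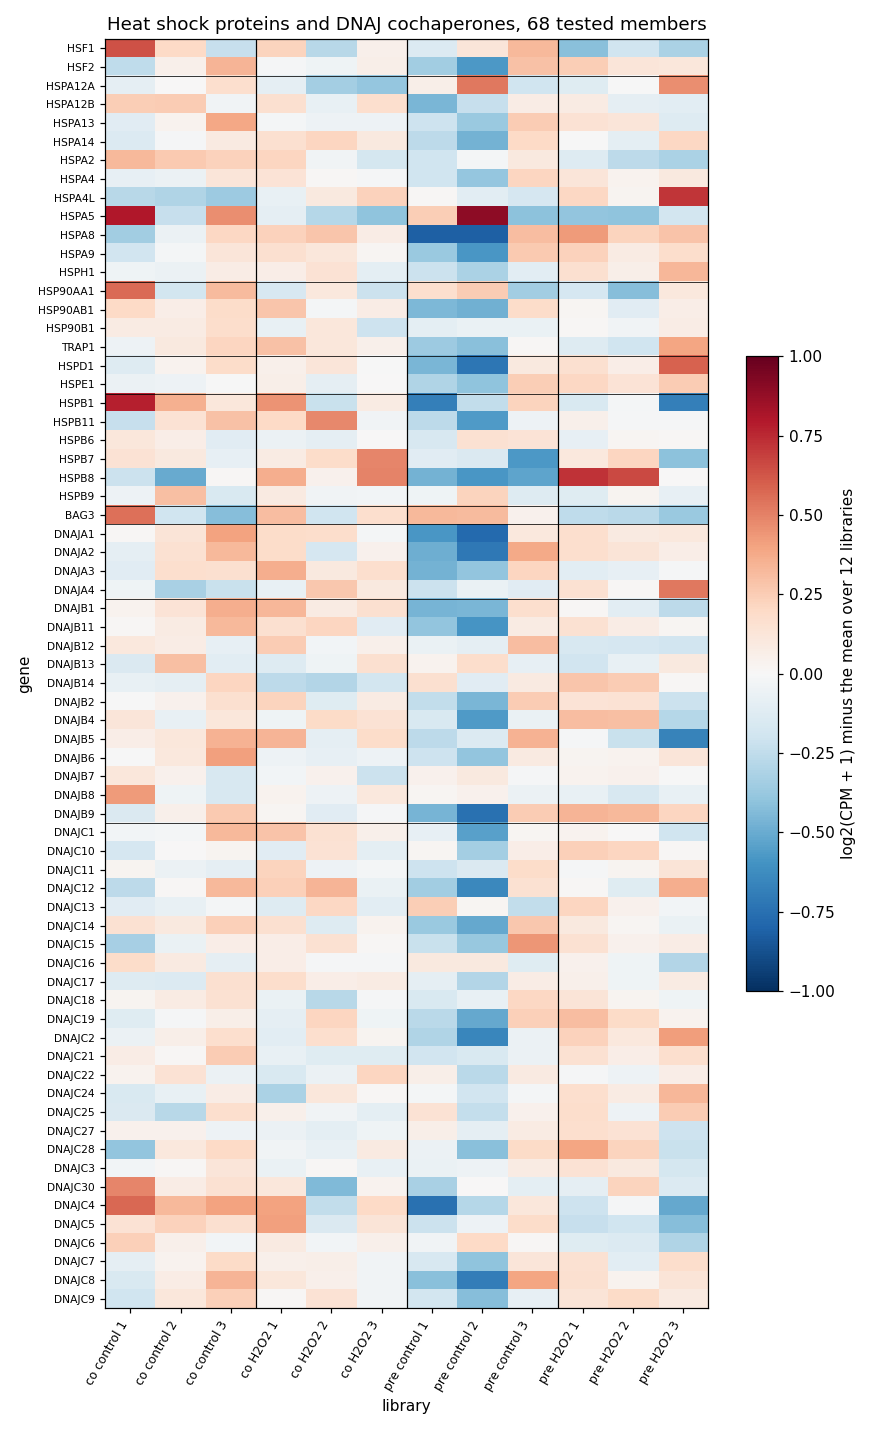
Level of each tested member in every library, as log2(CPM + 1) minus the gene's mean over the 12 libraries; columns are libraries, rows are the 68 members that passed the pre-treatment filter, ordered by role, and red is high and blue low. Control replicates 1 and 2 of the pre-treatment experiment are blue for many members, such as HSPA8 at 922.8 and 919.7 CPM, where control replicate 3 is red at 2006 CPM.

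With H2O2 present during differentiation, none of the 66 tested members changed at an adjusted p below 0.05 (edgeR's quasi-likelihood test), where 0.598% of the 22089 genes tested did. Without adjustment, 4 members (6.06%) had p below 0.05, against 8.15% of all genes. The 3 treated and 3 control libraries did not overlap for 8 members (12.1%), against 13.9% of all genes. In edgeR's exact test and in DESeq2, no member was called either, where 1.51% and 1.55% of all genes were. The log2 fold change (log2FC, treated over control) was above 0 for 30 of 66 members (45.5%, against 49.9% of all genes), with a median of -0.02. By role, it was above 0 for 6 of 11 Hsp70 and Hsp110 genes and 1 of 4 Hsp90 genes. By symbol, it was above 0 for 2 of 4 DNAJA, 4 of 12 DNAJB, 11 of 26 DNAJC and 3 of 4 HSPB genes.

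HSPB8, a small heat shock protein that works with BAG3 in the clearance of misfolded proteins, had the largest co-treatment log2FC of the members. It lies on chromosome 12, 119609360 to 119662660 (hg19). Control replicates 1 to 3 had 0.428, 0.171 and 0.672 CPM and treated replicates 1.137, 0.707 and 1.341 CPM. The groups did not overlap, but these values rest on 8 to 69 reads a library. The log2FC was 1.34 (standard error 0.497, unadjusted p = 0.0192, adjusted p = 0.442 in edgeR's quasi-likelihood test), and the adjusted p ranged from 0.185 to 0.987 over the alternatives.

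HSPA4L, an Hsp110 relative, had 15.09 ± 0.507 CPM in controls (SD, n = 3) and 20.3 ± 2.27 CPM with H2O2 (SD, n = 3). Every treated library lay above every control, and the log2FC was 0.43 (standard error 0.139, adjusted p = 0.335, edgeR).

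HSPA5 (BiP), the Hsp70 of the endoplasmic reticulum and the gene with the ER element shown above, had 214.1, 104.5 and 169.6 CPM in co-treatment controls and 115.5, 100.7 and 92.68 CPM with H2O2. The groups overlapped through control replicate 2, and the log2FC was -0.66 (standard error 0.212, adjusted p = 0.336, edgeR). It was called in one alternative, with no filter on low counts (adjusted p = 8.74e-04). HSP90B1 (GRP94), the Hsp90 of the same compartment, had 451.7 ± 16.9 CPM in controls (SD, n = 3) and 402 ± 44.8 CPM with H2O2 (SD, n = 3), and its groups also overlapped.

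The abundant cytosolic chaperones showed no change past the test. HSPA8 had 1276, 1559 and 1871 CPM in controls and 1899, 1971 and 1712 CPM with H2O2 (log2FC 0.25, standard error 0.158, adjusted p = 0.781, edgeR). HSP90AA1, the inducible cytosolic Hsp90, had 640, 380.7 and 538.6 CPM in controls and 386.5, 465.4 and 372.6 CPM with H2O2 (log2FC -0.35, standard error 0.181, adjusted p = 0.692, edgeR). In both genes the spread of the controls covered most of the difference.

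**Figure D2:**
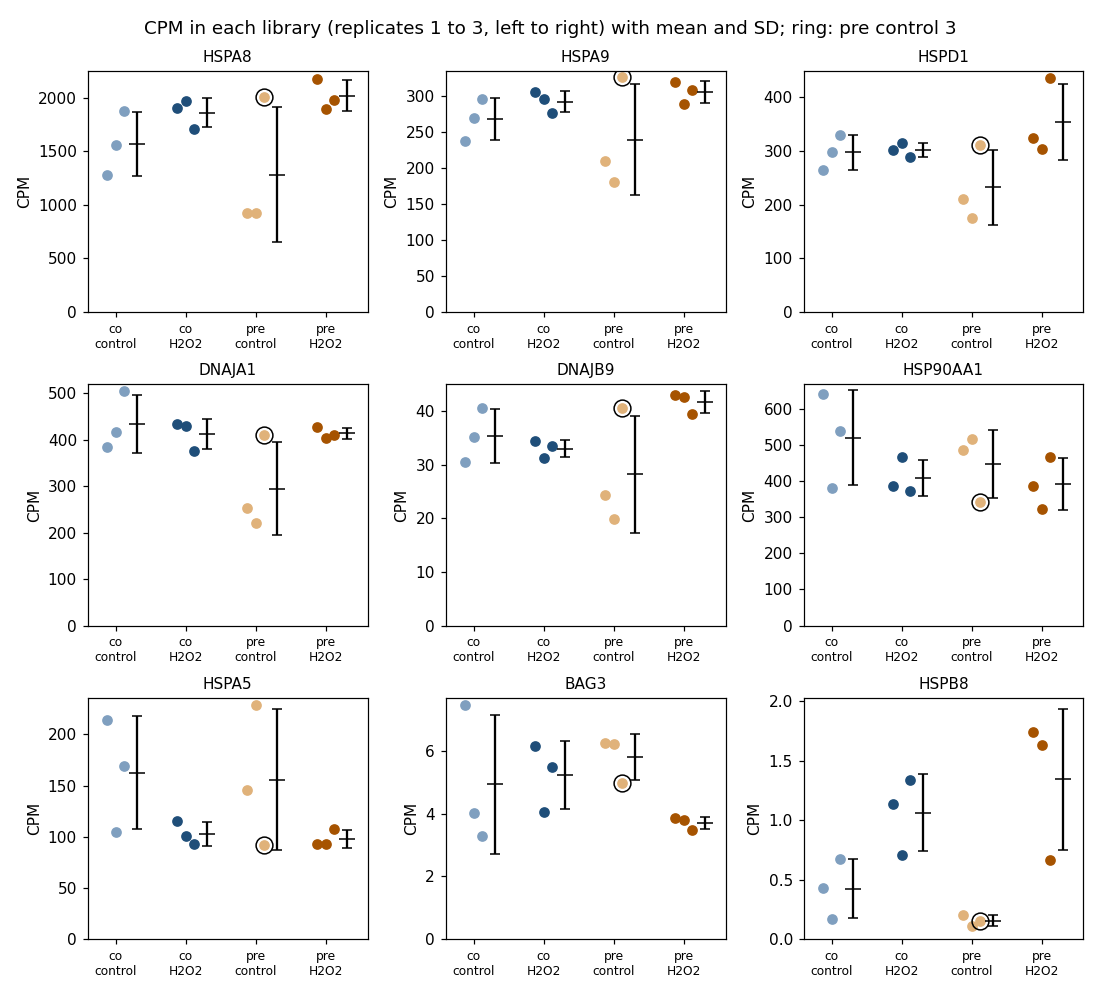
Levels of 9 members in CPM, on linear axes from 0, by group; coloured points are the 3 libraries of a group, the black mark beside them is the mean with its SD, and a ring marks control replicate 3 of the pre-treatment experiment. For HSPA8 and DNAJA1 the ringed control lies with the treated libraries, and for HSPB8 it lies with the other controls.

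Over all 6 pre-treatment libraries, again 0 of 68 members passed an adjusted p of 0.05 in edgeR's quasi-likelihood test, and 0.0242% of the 24743 genes tested did. DESeq2 and edgeR's exact test each called 1, HSPB8, and 2.85% and 1.1% of all genes. Without adjustment, p was below 0.05 for 6 members (8.82%, against 11.2% of all genes). HSPB8, DNAJC2, HSPH1, HSPD1 and DNAJC9 were higher in treated cells (4.03% of all genes were) and BAG3 lower (7.19%). Treated and control libraries did not overlap for 15 members (22.1%, against 16.4% of all genes), 10 of them higher (7.97% of all genes) and 5 lower (8.45%). The log2FC was above 0 for 52 of 68 members (76.5%, against 49.4% of all genes), with a median of 0.18, where the median of all genes was -0.01. It was above 0 for 23 of 26 DNAJC, 4 of 4 DNAJA, 9 of 11 Hsp70 and Hsp110 and 3 of 4 Hsp90 genes. The count was 7 of 12 for DNAJB genes, 3 of 6 for HSPB genes and 1 of 2 for heat shock factors. BAG3 was below 0.

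Without control replicate 3, 29 of 68 members were called (42.6%), against 26.1% of the 26350 genes tested. Of these, 27 rose (39.7%, against 13.2% of all genes) and 2 fell, HSPA5 and BAG3 (2.94%, against 12.8%). When an absolute log2FC above 1 was also asked, HSPA8 and HSPB8 were called, and 11.2% of all genes. The median log2FC was 0.42 over the members and 0.01 over all genes. With library size as the only scaling, the median of all genes moved to -0.21, and 15 members were called, 11 higher and 4 lower, where 23.8% of all genes were, so that the members' share was no longer above that of all genes. HSPH1, HSPE1, HSP90AB1 and DNAJB1 were among the members not called with that scaling. With 1 more library left out, 4 members were called without control replicate 2 (5.79% of all genes) and 20 without control replicate 1 (15.8%). Leaving out treated replicate 1 gave 12 (12.5%), treated replicate 2 gave 16 (15.5%) and treated replicate 3 gave 33 (33.1%). Where control replicate 1 or 2 was left out, 1 control library remained, which was assumed to vary as the treated libraries do.

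In most members, control replicate 3 lay nearer to the mean of the treated libraries than to that of the other controls. This held for 51 of 68 members (75%), and for 72.4% of all 24743 genes. Among the 29 called members it held for 25 (86.2%, against 87.7% of all genes called without control replicate 3), the exceptions being HSPB8, HSPH1, BAG3 and DNAJC21. As a description, the treated mean minus control replicate 3 was above 0 for 30 of 68 members (median log2 difference -0.05), and the treated mean minus control replicates 1 and 2 for 52 of 68 (median 0.35). Of all 24743 genes, 12721 were above 0 against control replicate 3 (median 0.02) and 11933 against control replicates 1 and 2 (median -0.03). Most members were thus higher in treated cells than in control replicates 1 and 2, but not than in control replicate 3. The part that the share of reads outside genes has in these differences was not tested.

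**Figure D3:**
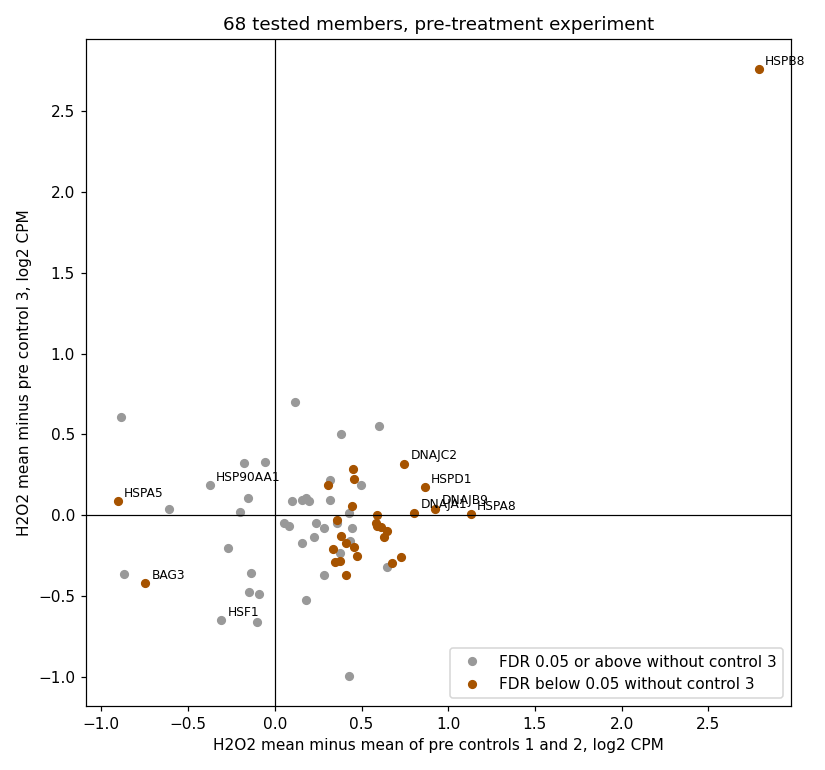
Log2 difference of each tested member after pre-treatment, treated mean minus control replicate 3 (vertical axis) against treated mean minus control replicates 1 and 2 (horizontal axis); each point is 1 gene, coloured by whether it was called without control replicate 3. HSPB8 is high on both axes, while HSPA8, DNAJA1 and DNAJB9 are high on the horizontal axis and near 0 on the vertical axis.

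HSPB8 had the largest pre-treatment difference of the members, and the treated mean was as far above control replicate 3 (log2 difference 2.76) as above control replicates 1 and 2 (2.79). The controls had 0.1995, 0.1095 and 0.1524 CPM, from 11, 5 and 10 reads, and the treated libraries had 1.74, 1.63 and 0.6635 CPM, from 168, 111 and 53 reads. All treated libraries lay above all controls. The log2FC was 3.13 over 6 libraries (standard error 0.525, adjusted p = 0.224 in edgeR's quasi-likelihood test) and 3.16 without control replicate 3 (standard error 0.576, adjusted p = 0.00698). Over 6 libraries the adjusted p was 1.88e-04 in edgeR's exact test, 4.04e-05 in DESeq2 and 0.381 in limma-voom, and it ranged from 4.04e-05 to 0.954 over all alternatives. Without both control replicates 2 and 3 it was 0.0648, from 1 control library and the spread of the treated ones.

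Other genes moved alongside HSPB8. VIM, which encodes the intermediate filament vimentin of mesenchymal (S-type) neuroblastoma cells, rose from 9.846, 5.758 and 6.197 CPM to 15.53, 15.26 and 17.78 CPM with co-treatment (adjusted p = 0.0272, edgeR), and from 3.065, 4.051 and 4.998 to 22.81, 19.41 and 21.67 CPM with pre-treatment (adjusted p = 0.0443, edgeR, 6 libraries). The other S-type markers did not all follow. Of 8, VIM was the only one called in either 6-library comparison, and COL1A2 and PRRX1 stayed at or below 0.2504 CPM. The summed level was 91.9 to 202 CPM in co-treatment controls, 191 to 207 with co-treatment, 134 to 264 in pre-treatment controls and 133 to 191 with pre-treatment. FN1 made up most of each sum (66.85 to 235.3 CPM). Over the 6 pre-treatment libraries, 3 of 6 tested S-type markers had a log2FC above 0. Of these, YAP1 (3.13) and CD44 (1.25) did not overlap between groups but were not called (adjusted p = 0.320 each, edgeR). The 6 noradrenergic markers (control first) summed to 1370 to 1900 and 1060 to 1390 CPM in the co-treatment groups and to 1220 to 2050 and 828 to 1140 CPM in the pre-treatment groups, and none was called over 6 libraries. Without control replicate 3, CD44, VIM and YAP1 of the S-type list were called higher, and of the noradrenergic list DBH, GATA3 and PHOX2A lower and ISL1 higher. The part of these cell type markers in the HSPB8 values was not tested, and fewer cells of a type cannot be told apart from less RNA per cell in bulk samples.

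Among the heat shock factors, HSF2 had 43.05, 36.67 and 67.55 CPM in pre-treatment controls and 65.31, 59.99 and 59.49 CPM in treated cells. Its log2FC was 0.35 over 6 libraries (adjusted p = 0.625) and 0.70 without control replicate 3 (adjusted p = 0.00683). HSF1, the main factor of the heat shock response, had 41.88, 50.34 and 58.13 CPM in controls and 34.26, 40.19 and 36.93 CPM in treated cells. All treated libraries lay below all controls, with a log2FC of -0.41 (adjusted p = 0.453) and, without control replicate 3, of -0.24 (adjusted p = 0.211).

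Of the Hsp70 genes, HSPA8 had 922.8, 919.7 and 2006 CPM in pre-treatment controls and 2175, 1896 and 1982 CPM in treated cells. Its controls thus split, with replicate 3 inside the treated range. Replicates 1 and 2 also lay below all co-treatment libraries (1276 to 1971 CPM). The log2FC was 0.67 over 6 libraries (standard error 0.342, adjusted p = 0.505, edgeR) and 1.20 without control replicate 3 (standard error 0.135, adjusted p = 0.00129), and against control replicate 3 alone the log2 difference was 0.01. HSPA9 (mortalin), the mitochondrial Hsp70, had 209.9, 180.9 and 326.2 CPM in controls and 319.3, 288.4 and 308 CPM in treated cells, the same split (log2FC 0.37, adjusted p = 0.606; without control replicate 3, 0.71, adjusted p = 0.00585).

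HSPA4L, which was higher in every co-treated library, had 19.12, 17.58 and 16.81 CPM in pre-treatment controls and 22.06, 19.41 and 31.74 CPM in treated cells. These groups did not overlap either, and the log2FC was 0.48 both over 6 libraries (adjusted p = 0.454) and without control replicate 3 (adjusted p = 0.129).

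HSPH1, an Hsp110 that exchanges nucleotide on Hsp70, had 187.9, 175.2 and 203 CPM in controls and 243.4, 227.1 and 274.7 CPM in treated cells. Here the 3 controls lay together below the treated libraries, with a log2FC of 0.42 over 6 libraries (standard error 0.170, unadjusted p = 0.0370, adjusted p = 0.411) and 0.52 without control replicate 3 (adjusted p = 0.0187). Without control replicate 3, 6 of 11 Hsp70 and Hsp110 genes rose (HSPA4, HSPA8, HSPA9, HSPA13, HSPA14 and HSPH1), where 13.2% of all genes did.

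HSPA5 was the 1 gene of that family that fell without control replicate 3. It had 145.9, 228.8 and 91.91 CPM in controls and 93.02, 92.83 and 107.7 CPM in treated cells, so that control replicate 3 was below every treated library. The log2FC was -0.63 over 6 libraries (adjusted p = 0.470), -0.87 without control replicate 3 (standard error 0.181, adjusted p = 0.0113) and -0.50 without control replicate 2 as well (adjusted p = 0.0852, with 1 control library left). Of the other ER chaperones, DNAJB9 (ERdj4), which represses the ER stress sensor IRE1, had 24.23, 19.77 and 40.47 CPM in controls and 43.01, 42.56 and 39.35 CPM in treated cells, and its log2FC was 0.58 (adjusted p = 0.473) and, without control replicate 3, 0.99 (adjusted p = 0.00320). DNAJB11 (ERdj3), which delivers clients to HSPA5, had a log2FC of 0.39 (adjusted p = 0.531) and 0.66 (adjusted p = 0.00712). HSP90B1 ranged from 389.9 to 398.5 CPM in the 3 controls and from 407.6 to 438.4 CPM in treated cells, and was not called. The ER chaperones of the list thus did not move in 1 direction.

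The mitochondrial chaperonin genes rose without control replicate 3. HSPD1 (Hsp60) had 210.8, 175.2 and 310.3 CPM in controls and 324.3, 303.2 and 435.2 CPM in treated cells. Treated replicate 2 was below control replicate 3, and the log2FC was 0.63 (adjusted p = 0.435) over 6 libraries and 0.95 (standard error 0.179, adjusted p = 0.00798) without that control. HSPE1 (Hsp10), its lid, shares a bidirectional promoter with HSPD1 and overlaps it and HSPE1-MOB4 in the annotation, so reads may be shared. It had a log2FC of 0.36 (adjusted p = 0.580) and 0.65 (adjusted p = 0.0132).

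Of the Hsp90 genes, HSP90AB1 alone was called. It had 831.3, 812.9 and 1293 CPM in pre-treatment controls and 1150, 1051 and 1188 CPM in treated cells, all 3 below control replicate 3, with a log2FC of 0.23 (adjusted p = 0.745) and 0.53 without that control (adjusted p = 0.0178). That call was lost with library size as the only scaling (log2FC 0.31, adjusted p = 0.111) and without control replicate 1 (adjusted p = 0.0562). HSP90AA1 had 485.9, 516.7 and 340.2 CPM in controls and 385.3, 321.5 and 466.9 CPM in treated cells, a log2FC of -0.16 (adjusted p = 0.802) and -0.29 (adjusted p = 0.221). TRAP1, the mitochondrial Hsp90, had log2FC values of 0.33 (adjusted p = 0.619) and 0.52 (adjusted p = 0.0763).

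BAG3, the partner of HSPB8, had 6.257, 6.218 and 4.968 CPM in pre-treatment controls and 3.853, 3.789 and 3.48 CPM in treated cells. Every treated library lay below every control, in the opposite direction to HSPB8, with a log2FC of -0.62 (standard error 0.216, unadjusted p = 0.0204, adjusted p = 0.351) and -0.68 without control replicate 3 (adjusted p = 0.0318). In the co-treatment groups BAG3 had 4.931 ± 2.22 and 5.232 ± 1.08 CPM (SD, n = 3 each). HSPB1 (Hsp27), the abundant small heat shock protein of these cells, overlapped between groups in both experiments, with 31.78 ± 10.3 CPM in pre-treatment controls and 30.16 ± 7.09 CPM in treated cells (SD, n = 3 each).

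Among the J-proteins, 3 of 4 DNAJA, 4 of 12 DNAJB and 8 of 26 DNAJC genes rose without control replicate 3, and none fell. Of all genes, 13.2% rose and 12.8% fell. DNAJA1, whose promoter is shown above, had 253.2, 221.4 and 409.1 CPM in controls and 427.3, 403.8 and 409.4 CPM in treated cells. Control replicate 3 again lay inside the treated range, and replicates 1 and 2 lay below all co-treatment libraries (375.3 to 503.8 CPM). The log2FC was 0.51 (adjusted p = 0.504) over 6 libraries and 0.87 (standard error 0.121, adjusted p = 0.00279) without control replicate 3. DNAJA2, of the same class, had 0.34 (adjusted p = 0.685) and 0.80 (adjusted p = 0.00358), and DNAJB1 (Hsp40), the J-protein induced by heat shock, 0.13 (adjusted p = 0.839) and 0.42 (adjusted p = 0.0355).

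DNAJC2 (MPP11), a J-protein bound to ribosomes, had 30.83, 24 and 36.66 CPM in controls and 44.96, 41.25 and 51.34 CPM in treated cells. Its 3 controls all lay below the treated libraries, with a log2FC of 0.61 (standard error 0.206, unadjusted p = 0.0174, adjusted p = 0.338) and 0.81 without control replicate 3 (adjusted p = 0.00938). DNAJC8, a splicing factor with a J domain, had 52.65, 43.48 and 93.57 CPM in controls and 79.33, 72.41 and 77.5 CPM in treated cells (log2FC 0.29, adjusted p = 0.720; 0.74, adjusted p = 0.00584). The neuronal J-proteins were not called: DNAJC6 (auxilin), which uncoats clathrin vesicles, had a log2FC of -0.22 (adjusted p = 0.618) and -0.20 (adjusted p = 0.242), and DNAJC5 (cysteine string protein of synaptic vesicles) had 125.5 ± 17.9 CPM in controls and 104.6 ± 8.7 CPM in treated cells (SD, n = 3 each).

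**Figure D4:**
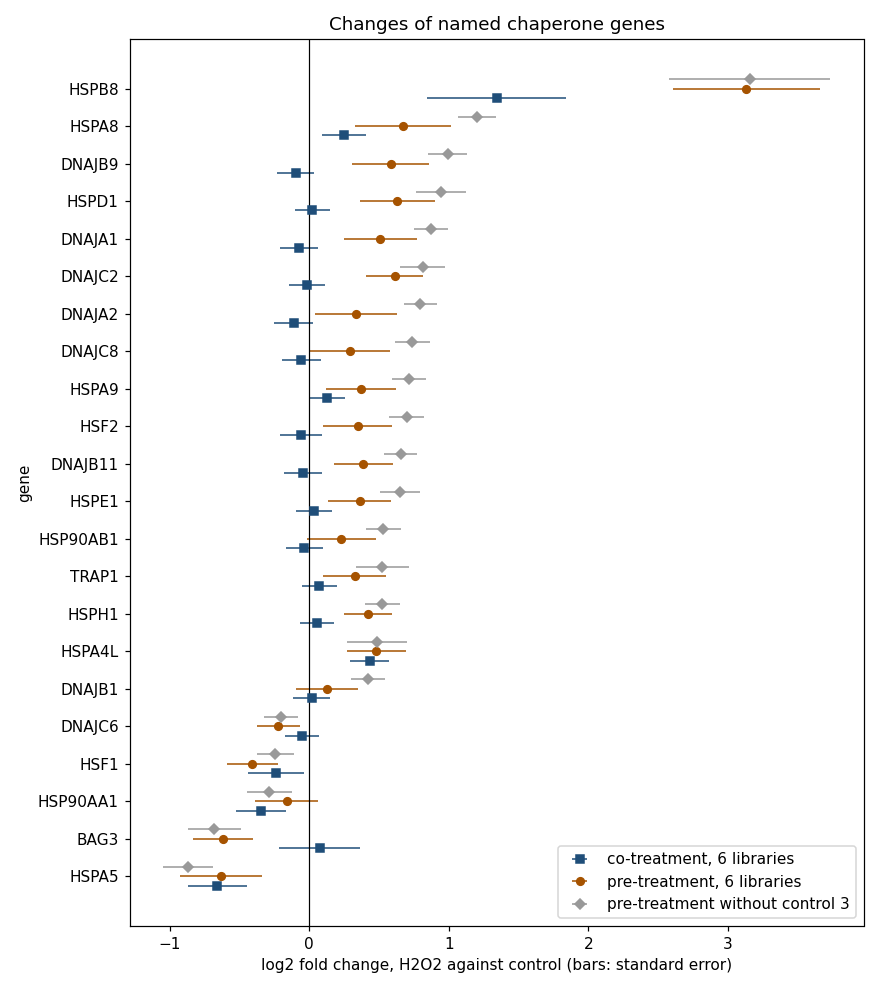
Log2FC (treated over control) of the named members with standard errors as bars, in the co-treatment comparison (squares) and in the pre-treatment comparison with (circles) and without (diamonds) control replicate 3; the vertical line marks 0. HSPB8 stands to the right in every comparison, at 1.34, 3.13 and 3.16, while HSPA8 moves from 0.67 to 1.20 when control replicate 3 is left out.

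Whether the members responded differently to the 2 exposures was tested with an interaction term in 1 fit of all 12 libraries. None of 68 members was called (edgeR's quasi-likelihood test), where 0.0287% of 24407 genes were, and 4 members (5.88%, against 8.94% of all genes) had an unadjusted p below 0.05: HSPB8, DNAJC2, DNAJB9 and DNAJC21, all with a higher value after pre-treatment (3.84% of all genes). The interaction was above 0 for 53 members (77.9%, against 47% of all genes), with control replicate 3 included. DESeq2 called none either and gave HSPB8 an adjusted p of 0.388. For HSPB8, the pre-treatment log2FC exceeded the co-treatment log2FC by 1.76 (standard error 0.744, adjusted p = 0.544), and for DNAJC2 by 0.61 (standard error 0.229, adjusted p = 0.525). DNAJC21, which acts in ribosome assembly and was picked after its values were seen, had a difference of 0.49 (standard error 0.163, adjusted p = 0.511). Without pre-treatment control replicate 3, 10 members were called, with 8.02% of all genes, among them DNAJB9 (1.03, adjusted p = 0.0115) and DNAJA1 (0.89, adjusted p = 0.0164), and HSPB8 was not (1.75, adjusted p = 0.170).

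Other chaperone genes, taken from fixed lists, were called without control replicate 3 and not in the 6-library comparisons. Without that control, 26.1% of all genes tested were called, 13.2% higher and 12.8% lower. Of 13 tested genes of the cytosolic chaperonin CCT and prefoldin, which fold actin and tubulin, none was called with co-treatment (11 above 0, median log2FC 0.11) or over the 6 pre-treatment libraries (13 above 0, median 0.39), and 10 rose without control replicate 3 (median 0.83). CCT2 had 230.6, 195.6 and 392.6 CPM in pre-treatment controls and 347.1, 328.7 and 376.5 CPM in treated cells, so control replicate 3 was again the highest. Of 12 Hsp90 cochaperones, 0, 0 and 7 were called in those 3 comparisons, all higher, among them STIP1, which links Hsp70 to Hsp90. Of 13 Hsp70 cofactors, 0, 0 and 5 were called, all higher. Of the 4 J-proteins without a DNAJ symbol, GAK and SEC63 fell and HSCB rose without control replicate 3. None of the crystallin, collagen chaperone and mitochondrial protease genes tested was called in any of them.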

How the data were processed

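RNA of 12 SH-SY5Y cultures was sequenced after ribosomal RNA depletion (TruSeq Stranded Total RNA). Per the study's methods and processing notes, reads were checked with FastQC 0.11.8, adapter-trimmed (cutadapt 2.10), aligned to the hg19 genome (HISAT2 2.1.0) and summed for each gene symbol (HTSeq 0.7.2); the strand setting and the annotation version are not given in the sources used here. The authors deposited raw counts for each library. Entries that name no gene (40 to 59.9% of reads) were left out. The 2 deposited tables of the authors' own log2 fold changes and p-values were not used.

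The statistical analysis used edgeR 4.0.16 under R 4.3.3 (quasi-likelihood test, TMM factors, Benjamini-Hochberg adjustment over all genes tested, called at an FDR below 0.05). Genes entered when their CPM reached that of 5 counts in the smallest library (0.181 CPM for co-treatment and the interaction, 0.12 for pre-treatment) in at least 3 libraries, or 2 without control replicate 3. CPM levels use TMM factors over all 12 libraries. Columns of counts per kilobase use MANE transcript lengths, and gene positions are from an annotation lifted to hg19. DESeq2 1.42.0 and limma 3.58.1 (voom) were alternatives, with edgeR's exact test, other scalings, no filter, a fold threshold, a replicate block and each library left out. The comparison with control replicate 3 alone was added after the data were seen. The test was checked on simulated counts.

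The members, gene lists and tests were chosen with earlier results of these data known. Named were 21 fixed members, members with the 10 smallest FDR in a test that called more, and those with the 3 smallest p in each direction or the 3 largest changes in each experiment; of the last, HSPB9 (3 to 15 reads in each pre-treatment library) and DNAJB8 (4 to 12) were too low to describe. A marker gene of the noradrenergic list is not reported here and was left out of its sums.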

Additional observations from a re-analysis of the deposited data

How the results depend on the processing

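Counts of called members were recomputed under each alternative. With co-treatment, 0 members were called under every alternative except no filter on low counts (1, HSPA5, lower), where 1.44% of all genes were called. Under the other alternatives, 0.0123 to 1.55% of all genes were called. Over the 6 pre-treatment libraries, 1 member (HSPB8) was called with edgeR's exact test (1.1% of all genes) and with DESeq2 (2.85%). The same 1 was called with no filter (0.772%) and with 1 fit over 12 libraries (0.279%). With each library left out the count was 0 to 29, being 29 without control replicate 3 (26.1%). It was 0 without any other library, where no gene of all those tested was called either. Without control replicate 3, the 29 calls became 15 with library size alone (23.8% of all genes) and 44 with the replicate block (40.8%). They became 2 (HSPA8 and HSPB8) with a fold threshold (11.2%), and 4 to 33 with a further library left out. They were 30 with the exact test (30.1% of all genes) and 29 with DESeq2 (30.1%). They were 29 with limma-voom (25.5% of all genes) and 31 with no filter (20.2%). In the interaction, the count was 0 to 10 with each library left out, 10 only without pre-treatment control replicate 3 (8.02% of all genes). The cause of these shifts was not tested, beyond the smaller number of libraries where one was left out.

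The block gave 0 calls with co-treatment, over 6 pre-treatment libraries and in the interaction. The replicate numbers do not pair the libraries by any label, and same-numbered libraries had residuals that correlated with r = -0.08, -0.08 and -0.04 with co-treatment and by -0.23, 0.03 and -0.27 with pre-treatment.

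No log2FC printed for a member changed sign under any alternative. Members described by CPM alone, such as HSPB1, HSP90B1 and DNAJC5, are not covered by that statement. Among all named members tested, the sign changed under some alternative for 17 of 30 with co-treatment, 3 of 31 over 6 pre-treatment libraries, 3 of 31 without control replicate 3 and 6 of 31 in the interaction. Members with few reads, HSPB8 among them, are limited by depth, and the HSPA1 genes cannot be read from these counts.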

Other observations

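Values follow for 2 genes outside the members, picked from the chaperone lists after their values were seen. HSF4, another heat shock factor, had 14.2, 10.86 and 12.71 CPM in pre-treatment controls and 29.11, 30.44 and 19.86 CPM in treated cells. Its groups did not overlap, and the log2FC was 1.10 over 6 libraries (standard error 0.218, adjusted p = 0.310, edgeR's quasi-likelihood test) and 1.15 without control replicate 3 (adjusted p = 0.00859). With co-treatment, HSF4 had a log2FC of 0.08 (adjusted p = 0.969), and the difference between the exposures was 0.99 (adjusted p = 0.511). FKBP5, an Hsp90 cochaperone and a known target of steroid receptors, was called in no comparison. It had a log2FC of -0.69 with co-treatment (adjusted p = 0.181), all treated libraries lying below all controls, and of 0.01 over the 6 pre-treatment libraries (adjusted p = 0.995).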
